A study of Mus musculus with 6 samples.

Results

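Plvap, Esm1, Fam167b and Fam167a are 4 of the 18193 genes named on the arrays, and each was read by 1 probe set that the platform annotation assigns to that gene alone. Plvap, Esm1 and Fam167b were chosen by their values because they stood much higher in Fz4-null than in wild-type cerebellar endothelial cells, and Fam167a because it is the paralogue of Fam167b. Their values in that comparison chose them, so those values are given here as a description, with no test. The cells came from cerebellum of mice at postnatal day 16, of mixed gender and a C57Bl6/129 mixed background, and were captured on beads that carried an antibody to the endothelial adhesion molecule PECAM. The mice were Fz4-/- or wild type, with 3 preparations of each genotype and 1 Affymetrix array for each preparation. Fz4 is Frizzled4, the receptor encoded by Fzd4 through which Norrin and Wnt signals reach endothelial cells. The labels name no conditional driver, and they do not say whether a preparation came from 1 animal or several, so every p-value below measures the spread between these preparations only.

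Endothelial cells of most brain regions form a barrier, with sealed junctions, few vesicles and no pores. Vessels of endocrine glands, the gut and the choroid plexus instead carry fenestrae, small pores that many of these vessels close with a thin diaphragm. Plvap, the antigen of the MECA-32 antibody, forms these diaphragms and those of caveolae; immature brain vessels carry it and lose it as the barrier matures. Esm1 (endocan) is a secreted proteoglycan with a dermatan sulfate chain, made by endothelial cells at growing vessel tips and induced by VEGF. Fam167b and Fam167a encode small related proteins whose roles are little known.

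All levels are log2 RMA values, in which a step of 1 is a doubling, and all differences are Fz4-null minus wild type. RMA corrects background, brings arrays to a common distribution and summarises the probes of a probe set, and depth does not apply to arrays, whose small number sets the precision. The medians of the arrays lay between 5.52 and 5.58 and lower quartiles between 3.46 and 3.64. Fzd4, the targeted gene, read 10.80, 10.20 and 10.88 on wild-type arrays 1 to 3 and 3.04, 4.03 and 3.996 on null arrays 1 to 3, so every array matched its label. The presence of endothelial RNA was checked on 18 general endothelial genes, whose group means all lay between 9.28 and 12.47 in both genotypes. The median of their group means was 11.57, against 10.63 for mural, 9.3 for fibroblast, 8.5 for astroglia and 7.53 for microglia markers. For choroid plexus markers it was 5.02. Single markers of other cells read as high, up to 12.75 for mural and 12.6 for choroid plexus genes. The preparations were therefore not shown to be free of other cells. As a guide to the level near background, 13 of 14 measured genes of sperm, muscle, skin, oocyte and mammary gland read between 1.83 and 4.28 on single arrays. The exception was Prm1, with group means of 8.53 and 9.84. Probe sets differ in how strongly they bind, so this range is a guide and not a detection limit.

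Plvap was near background on 1 wild-type array and far above it on every null array. It read 3.91, 4.85 and 6.49 on wild-type arrays 1, 2 and 3, and 10.08, 10.46 and 10.34 on null arrays 1, 2 and 3. All 3 null arrays were high and close together, whereas the wild-type arrays were low and spread over 2.58, and the groups did not overlap. The means were 5.08 ± 1.31 (SD, n = 3) and 10.29 ± 0.19, a difference of 5.21, or 37.1-fold. This was the highest difference of all 18193 genes. Even the lowest null array stood 3.59 above the highest wild-type array, or 12.1-fold. The wild-type spread was unusual in itself, since only 0.759% of the 45037 probe sets had a larger SD among the wild-type arrays, while 70.1% had a larger SD among the null arrays. The size of the Plvap difference therefore depended on which wild-type array was included, being 5.92 when wild-type replicate 3 was left out and 4.63 when wild-type replicate 1 was.

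Esm1 was steady in wild type and high in every null array. It read 5.69, 5.49 and 5.39 on wild-type arrays 1 to 3, and 9.93, 9.25 and 9.11 on null arrays 1 to 3. Null replicate 1 was the highest, the other null arrays were close to each other, and no null array approached the wild-type range. The means were 5.52 ± 0.16 and 9.43 ± 0.44 (SD, n = 3), a difference of 3.91 or 15.0-fold, at rank 3 of all genes. The gap from the highest wild-type to the lowest null array was 3.42, or 10.7-fold. All 3 wild-type values lay above the guide range for background.

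Fam167b had the tightest wild-type values of the 4 genes. It read 5.36, 5.29 and 5.48 on wild-type arrays 1 to 3, and 8.54, 8.94 and 8.38 on null arrays 1 to 3. Null replicate 2 was the highest and the groups were again far apart, by 2.90 at the nearest arrays. The means were 5.38 ± 0.10 and 8.62 ± 0.29 (SD, n = 3), a difference of 3.25 or 9.49-fold, the fifth highest of all genes. The other genes above it in that order were Exoc3l2 and Rbp7, of which Exoc3l2 differed by 4.47 and the retinol-binding protein gene Rbp7 by 3.35.

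Fam167a did not share the pattern of its paralogue. It read 3.56, 4.46 and 3.11 on wild-type arrays 1 to 3, and 3.41, 2.88 and 2.92 on null arrays 1 to 3. The groups overlapped, wild-type replicate 2 was the highest array, and 5 of the 6 values lay inside the guide range for background. The means were 3.71 ± 0.69 and 3.07 ± 0.29 (SD, n = 3), a difference of -0.64, which is smaller than the wild-type SD. Without wild-type replicate 2 the difference was -0.27. At this level RMA compresses differences, so a change in Fam167a could be understated.

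**Figure D1:**
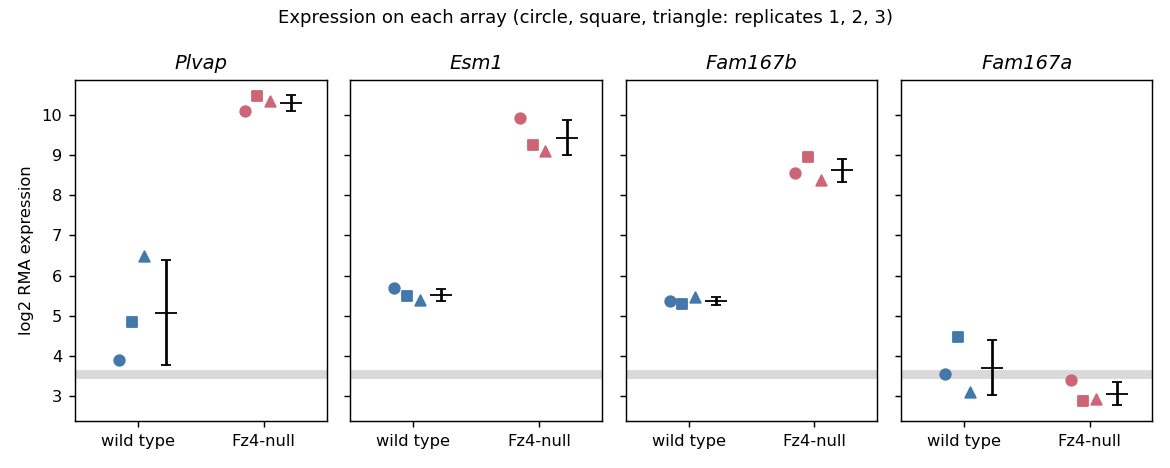
Log2 RMA expression (vertical axis) of each of the 4 genes on the 3 wild-type (blue) and 3 Fz4-null (red) arrays, with the group mean ± SD in black and the range of array lower quartiles as a grey band. Plvap, Esm1 and Fam167b show null arrays far above wild type, with a wide wild-type spread only for Plvap, while the Fam167a groups overlap near the grey band.

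Across the 4 genes, 3 had every null array above every wild-type array, where 4.59% of all genes did so, a count that the choice of the genes fixed. By replicate number the differences ran from 3.85 to 6.18 for Plvap, from 3.72 to 4.23 for Esm1 and from 2.90 to 3.66 for Fam167b. For Fam167a they ran from -1.59 to -0.16. The array that stood highest within the null group was not the same for the 3 higher genes, being replicate 2 for Plvap and Fam167b and replicate 1 for Esm1. In bulk RNA, a larger share of cells making a transcript and more transcript per cell cannot be told apart.

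**Figure D2:**
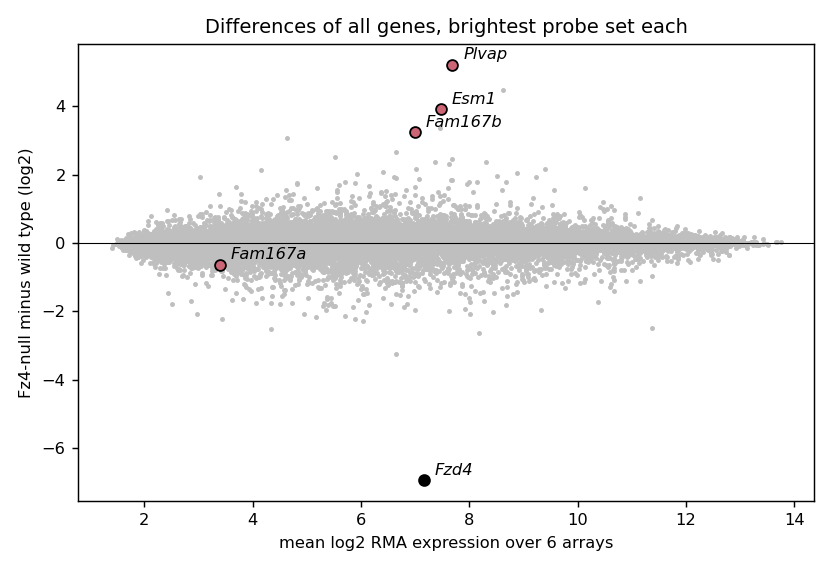
Difference between Fz4-null and wild type (vertical axis, log2) against the mean log2 RMA level over 6 arrays (horizontal axis), with 1 grey point per gene for its brightest probe set. Plvap at 5.21, Esm1 at 3.91 and Fam167b at 3.25 lie above nearly all genes, Fam167a at -0.64 lies in the dim part of the cloud, and Fzd4 in black is the lowest point.

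RefSeq promoter windows of build GRCm38.p6 were matched for 2 of the 4 genes, Esm1 and Fam167b, which stood high together in the null arrays. They are shown from the base 250 before the annotated start to the base just before it, 5′ to 3′ on the gene's strand, in lower case, with capitals marking every match to the letters searched. Esm1 lies on the plus strand (chr13:113209409-113209658) and Fam167b on the minus strand (chr4:129578581-129578830).
Esm1: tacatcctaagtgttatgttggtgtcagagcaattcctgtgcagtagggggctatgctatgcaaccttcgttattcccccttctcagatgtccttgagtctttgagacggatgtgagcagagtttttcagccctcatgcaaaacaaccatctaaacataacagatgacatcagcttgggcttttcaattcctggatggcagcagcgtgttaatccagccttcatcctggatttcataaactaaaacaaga
Fam167b: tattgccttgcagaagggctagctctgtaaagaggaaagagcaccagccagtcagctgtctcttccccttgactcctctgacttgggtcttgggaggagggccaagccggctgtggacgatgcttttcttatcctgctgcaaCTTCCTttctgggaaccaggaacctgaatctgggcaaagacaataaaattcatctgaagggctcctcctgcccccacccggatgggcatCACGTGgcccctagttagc
The letters searched, on both strands of the 300-base windows that reach 50 bases past the start, were CTTTGAA or its variant CTTTGAT, along with CTTTGTA or its variant CTTTGTT, for TCF/LEF factors, the DNA-binding partners of beta-catenin. Those for ETS factors were CCGGAA as well as AGGAAG, those for SOX factors were AACAAT as well as AACAAAG, that for hypoxia-inducible factors was ACGTG, and that for a TATA box was TATAAA. The Esm1 window held 0 matches to any of them. The Fam167b window held 1 ETS match, AGGAAG on the minus strand of the gene, with its first printed base at position -108 from the start. It also held 2 overlapping matches to ACGTG, 1 on each strand, at positions -19 and -18. Of 32851 windows of this length, 45.2% held an ETS match, 19.6% a hypoxia match, 16.9% a TCF/LEF match, 15.7% a SOX match and 13.6% a TATA match. These matches are letters only and say nothing about factor binding.

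The chromosomal neighbours of Plvap, Esm1 and Fam167b showed no difference of that size. Among the 3 nearest measured protein-coding genes on each side of each gene, 0 of 24 passed an adjusted p of 0.05 in limma (Benjamini-Hochberg over all 45037 probe sets), and 1 had an unadjusted p under 0.05, against 4.6% of all genes. Over all probe sets 5, or 0.0111%, passed, but 0 with the replicate number as a block and 0 to 2 with 1 array left out, so this count of 0 is read against few or no calls anywhere. The null arrays all lay below wild type for 3 of the 24, Gzmk, Fam229a and Dcdc2b, against 4.95% of all genes. They all lay above for 0, against 4.59%. Beside Plvap, the antiviral tetherin gene Bst2 differed by 0.11 (SE 0.16), Gtpbp3, a mitochondrial tRNA modification gene, by 0.16 (SE 0.25), and Dda1 by 0.35 (SE 0.21). Ano8, Mvb12a and Nxnl1 differed by -0.24, 0.28 and -0.28. Beside Esm1, the sorting nexin gene Snx18 differed by -0.07 (SE 0.19) and the granzyme genes Gzmk and Gzma by -0.43 and 0.20. Gpx8, Hspb3 and Arl15 differed by -0.11, -0.01 and 0.12. Beside Fam167b, the histone deacetylase gene Hdac1 differed by 0.13 (SE 0.37), the translation factor gene Eif3i by 0.14 (SE 0.31) and Marcksl1 by 0.22 (SE 0.19). Fam229a and Tmem234 differed by -0.25 and -0.04. The gene with the unadjusted p under 0.05 was Dcdc2b, also beside Fam167b, at -0.95 (SE 0.32, limma adjusted p = 1.00). Beside Fam167a, the 6 genes Fdft1, Gata4, Blk, Mtmr9, Xkr6 and Pinx1 differed by -0.28 to 0.53. The neighbours differed by at most 0.43 for Esm1, 0.35 for Plvap and 0.95 for Fam167b. The 3 high genes were chosen by their large differences, so their standing apart from the neighbours was largely fixed by that choice.

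**Figure D3:**
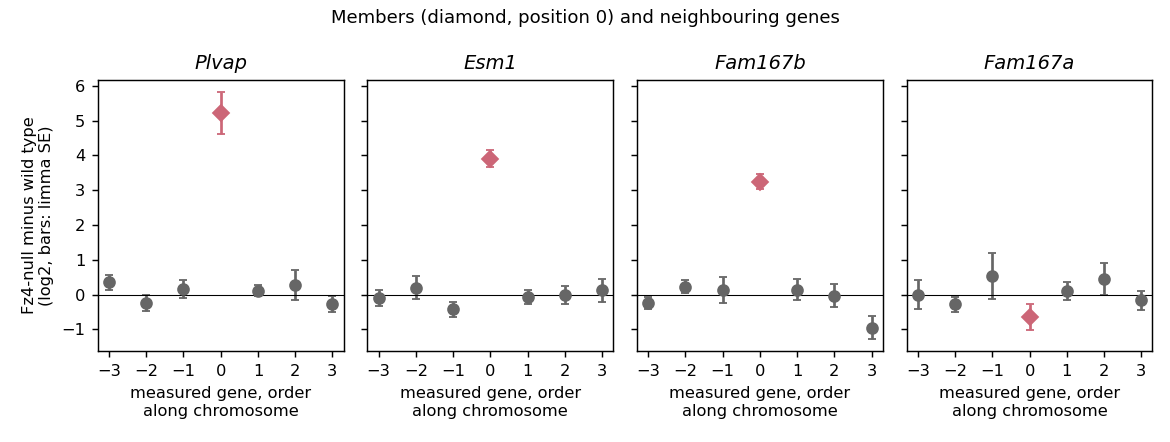
Difference between Fz4-null and wild type (vertical axis, log2, bars are limma SE) of each of the 4 genes (red diamond at position 0) and of the 3 nearest measured protein-coding genes on each side, in order along the chromosome (horizontal axis). The neighbours lie between -0.95 and 0.53, around diamonds at 5.21, 3.91, 3.25 and -0.64.

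The genes with the most similar profiles were sought by the root mean square distance, in log2, between the 6 array values of each gene after its own wild-type mean was taken off. Nearest to Plvap were Exoc3l2 (0.98), a relative of an exocyst subunit gene, then Esm1 (1.30) and Fam167b (1.57). Nearest to Esm1 were Exoc3l2 (0.48), Fam167b (0.58) and Tmem267 (0.96). Nearest to Fam167b were Esm1 (0.58), Tmem255a (0.62) and Bdkrb2 (0.71), the bradykinin B2 receptor gene. Exoc3l2 read 6.65, 5.93 and 6.60 on wild-type arrays 1 to 3 and 11.17, 11.01 and 10.41 on null arrays 1 to 3. Like Esm1 it was highest on null replicate 1. The values of Tmem267 came from a wild-type mean of 3.11, inside the guide range for background, and were spread from 5.20 to 7.17 in the null arrays. Fam167a lay 2.80 from Fam167b, against 0.58 for Esm1. The 6 arrays hold only 2 groups, so this measure mostly orders genes by the size of their difference.

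Other genes typical of fenestrated or peripheral endothelium stood higher in part. Of 18 such genes, with Plvap and Esm1 left out, 0 passed the adjusted p of 0.05 in limma, and 8 had an unadjusted p under 0.05, all higher, against 2.34% higher and 2.26% lower among all genes. The null arrays all lay above the wild-type arrays for 8 of 18 and all below for 0 of 18, against 4.59% and 4.95% of all genes. The median difference was 0.51, against 0.01 for all genes. Relative to the wild-type mean, the list mean lay at 0.43, 0.86 and 0.67 on null arrays 1 to 3. On wild-type arrays 1 to 3 it lay at 0.13, 0.04 and -0.17, so the groups did not overlap. This list and those below were chosen with earlier results of these data known, so their counts and medians are a description. Plpp3, a lipid phosphatase, went from 9.86 ± 0.07 on wild-type arrays to 11.07 ± 0.25 on null arrays (SD, n = 3), a difference of 1.21 (SE 0.19). Meox2, a homeobox factor of peripheral endothelium, differed by 1.19 (SE 0.22) from a wild-type level of 3.47, inside the guide range for background. Cd300lg, a receptor of peripheral capillaries, differed by 2.52 (SE 0.48), from 4.27 ± 0.84, at the upper end of that range, to 6.78 ± 0.61 (SD, n = 3). The lowest limma adjusted p in the list was 0.436. The other 10 genes were not separated between groups. Among them were Cd36 (1.37), Emcn (0.41), which codes for a sialomucin of capillaries and veins, Vwf (0.08) and Car4 (-0.41). Aqp1, a water channel also made by choroid plexus epithelium, differed by -0.50. It read 4.73, 4.61 and 6.73 on wild-type arrays 1 to 3 and 4.93, 4.99 and 4.67 on null arrays 1 to 3. Its lower mean thus came from wild-type replicate 3 alone. By the mean, 12 genes of the list were higher and 6 lower.

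Tip cell genes, the class to which Esm1 belongs, had a median difference of 0.34, and of 0.22 when null replicate 3 or 0.23 when wild-type replicate 2 was left out. The list mean lay at 0.40, 0.19 and 0.55 on null arrays 1 to 3 and at -0.13, -0.18 and 0.31 on wild-type arrays 1 to 3, relative to the wild-type mean, so the groups overlapped. Of 23 measured genes other than Esm1, 0 passed in limma and 3 had an unadjusted p under 0.05, all higher, against 2.34% of all genes. Kcne3, a potassium channel subunit, differed by 1.84 (SE 0.34), Trp53i11 by 1.05 (SE 0.39) and Cotl1, an actin-binding protein, by 0.41 (SE 0.17). The null arrays all lay above wild type for 3 of 23, against 4.59% of all genes, and all below for 1, Adm (-0.07), against 4.95%. When wild-type replicate 3 was left out they lay above for 14 of 23, where 16.8% of all genes did so. VEGF ligands, receptors and response genes, whose signal is known to induce Esm1, had a median difference of 0.01. Of 18 genes 0 passed in limma and 1 had an unadjusted p under 0.05, against 4.6% of all genes. The differences ranged from -0.24 to 0.68. The list mean lay at 0.06, 0.06 and 0.04 on null arrays 1 to 3, relative to the wild-type mean. On wild-type arrays 1 to 3 it lay at -0.01, 0.03 and -0.02, a narrow separation. The ligand Vegfd differed by 0.68 (SE 0.27), the co-receptor Nrp2 by 0.41 (SE 0.21) and Vegfa by 0.16 (SE 0.18). These are RNA levels in bead-purified endothelial preparations, so VEGF reaching the vessels from other cells was not measured.

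Genes for the structures that Plvap and Esm1 take part in differed little at the median. Of 13 caveola coat and neck genes 0 passed in limma and 0 had an unadjusted p under 0.05, where 4.6% of all genes did. The list median was 0.05. Relative to the wild-type mean, the list mean lay at 0.16, 0.07 and 0.06 on null arrays 1 to 3. On wild-type arrays 1 to 3 it lay at 0.01, 0.03 and -0.05, so the groups were separated by little. Cavin3 differed by 0.60 (SE 0.28), Ehd4 by 0.42 (SE 0.24) and Cavin2 by 0.11 (SE 0.18). Of 20 enzymes that build chondroitin or dermatan sulfate chains, the type of chain Esm1 carries, 0 passed in limma and 1 had an unadjusted p under 0.05, against 4.6% of all genes. The median was 0.19, and 0.08 when wild-type replicate 2 or 0.11 when wild-type replicate 1 was left out. That gene was Chst15, a chondroitin sulfotransferase, which differed by 0.78 (SE 0.21). Chpf2 differed by 0.27 (SE 0.16) and Chst12, another sulfotransferase, by 0.61 (SE 0.42). The null arrays all lay above wild type for 2 of 20, against 4.59% of all genes, and all below for 0, against 4.95%. The list mean lay at 0.15, 0.21 and 0.21 on null arrays 1 to 3, relative to the wild-type mean. On wild-type arrays 1 to 3 it lay at 0.02, 0.03 and -0.04, so these groups did not overlap either.

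Blood-brain barrier genes, set beside the fenestrated or peripheral genes, differed little at the median. Of 26 measured barrier genes 0 passed in limma and 3 had an unadjusted p under 0.05, all lower, against 2.26% of all genes. The median was -0.07, and -0.17 when null replicate 3 or -0.04 when null replicate 2 was left out. Slc7a3, a cationic amino acid transporter, differed by -3.26 (SE 0.55), the amino acid transporter Slc38a5 by -0.78 (SE 0.28) and the transferrin receptor Tfrc by -0.51 (SE 0.17). The null arrays all lay below wild type for 5 of 26 genes, against 4.95% of all genes, and all above for 1, against 4.59%. The list mean lay at -0.25, -0.48 and -0.13 on null arrays 1 to 3, relative to the wild-type mean. On wild-type arrays 1 to 3 it lay at -0.05, -0.05 and 0.10, so each null array lay below each wild-type array. Slc7a3, with the largest difference of the list, read 8.70, 9.12 and 7.02 on wild-type arrays 1 to 3. Its null arrays 1 to 3 read 5.28, 5.26 and 4.53. This gene weighs heavily on the list mean, so the separation is not shown for the other barrier genes as a group.

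**Figure D4:**
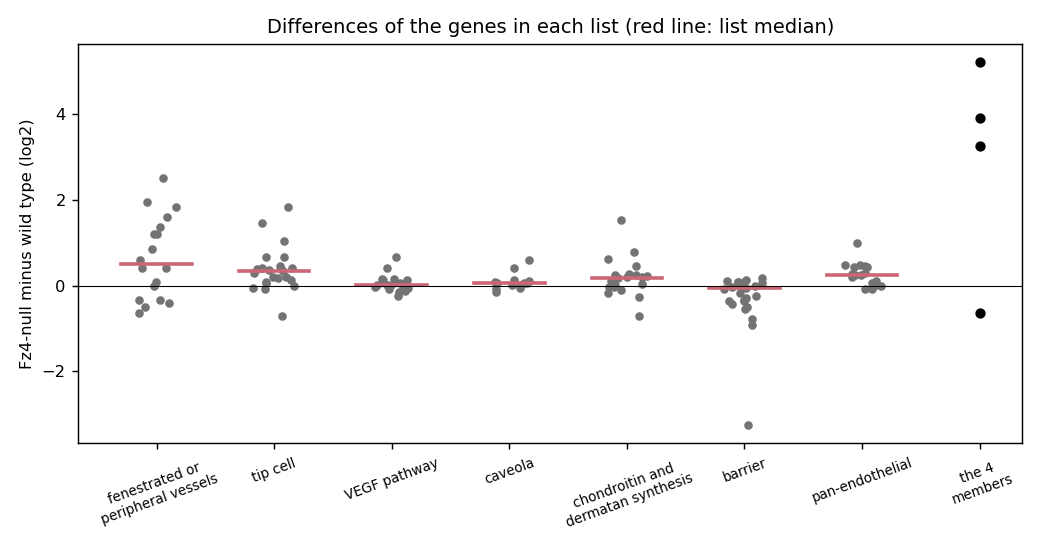
Differences between Fz4-null and wild type (vertical axis, log2) of every measured gene in 7 lists (grey points, red line at the list median) beside Plvap, Esm1, Fam167b and Fam167a (black). The medians lie between -0.07 for barrier genes and 0.51 for fenestrated or peripheral vessel genes, while 3 of the 4 black points lie above every point of the lists.

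Of the marker lists of other cells, the choroid plexus list had every null array below every wild-type array, and its part in the member differences was not tested. Choroid plexus capillaries are fenestrated, so epithelial markers of the choroid plexus are of interest beside Plvap. The mean of 11 such markers was 6.09, 6.06 and 8.20 on wild-type arrays 1 to 3 and 5.04, 5.35 and 5.30 on null arrays 1 to 3. Wild-type replicate 3, the array with the highest wild-type Plvap value, thus also held the highest choroid plexus signal. Within wild type it was also highest for several other lists, by less. It lay above the wild-type mean by 0.43 for astroglia, 0.37 for neurons, 0.26 for mural, 0.16 for endothelial and 0.16 for fibroblast genes. The microglia list lay at -0.07 there and the fenestrated or peripheral list at -0.17. All 11 markers were lower in the null arrays by the mean. The null arrays all lay below wild type for 8 of 11, against 4.95% of all genes. In limma 0 passed and 6 had an unadjusted p under 0.05, all lower, against 2.26% of all genes. Ttr, which codes for the thyroid hormone carrier transthyretin, differed by -2.48 (SE 0.50), Otx2 by -1.50 (SE 0.40) and F5 by -0.71 (SE 0.22), while Kcne2 read 2.14 to 2.45 on the null arrays, inside the guide range for background. Esm1 and Fam167b showed no such rise on wild-type replicate 3, reading 0.13 below and 0.10 above their wild-type means.

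Of the 18 general endothelial genes, the null arrays all lay above wild type for 3, against 4.59% of all genes. Relative to the wild-type mean, the list lay at 0.33, 0.12 and 0.33 on null arrays 1 to 3 and at -0.08, -0.08 and 0.16 on wild-type arrays 1 to 3, so wild-type replicate 3 lay above null replicate 2 and the groups overlapped. The median difference was 0.25, 0 passed in limma, and 2 had an unadjusted p under 0.05, all higher, against 2.34% of all genes. These were Clec14a at 1.00 (SE 0.24) and Tie1 at 0.49 (SE 0.19). On the same arrays Plvap, Esm1 and Fam167b lay at least 3.00 above their wild-type means. Null replicate 1 was poor in other cells, its marker means lying at -2.89 for microglia and macrophages, -2.68 for fibroblasts, -1.84 for astroglia and -1.24 for mural cells against the wild-type mean. Without that array the differences were 5.32 for Plvap, 3.66 for Esm1, 3.29 for Fam167b and -0.81 for Fam167a. Of the 11 microglia, 9 fibroblast, 9 astroglia, 11 mural, 13 neuron, 7 oligodendrocyte and 9 blood markers, 0 passed in limma and 1, 1, 1, 0, 1, 1 and 0 had an unadjusted p under 0.05, all lower, against 2.26% of all genes. The lowest p among them belonged to Mrc1 (-2.07), Fmod (-1.74), Hopx (-0.78), Tagln (-0.41), Foxp2 (-0.61), Sox10 (-0.50) and Pf4 (-1.57), in the same order of lists.

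**Figure D5:**
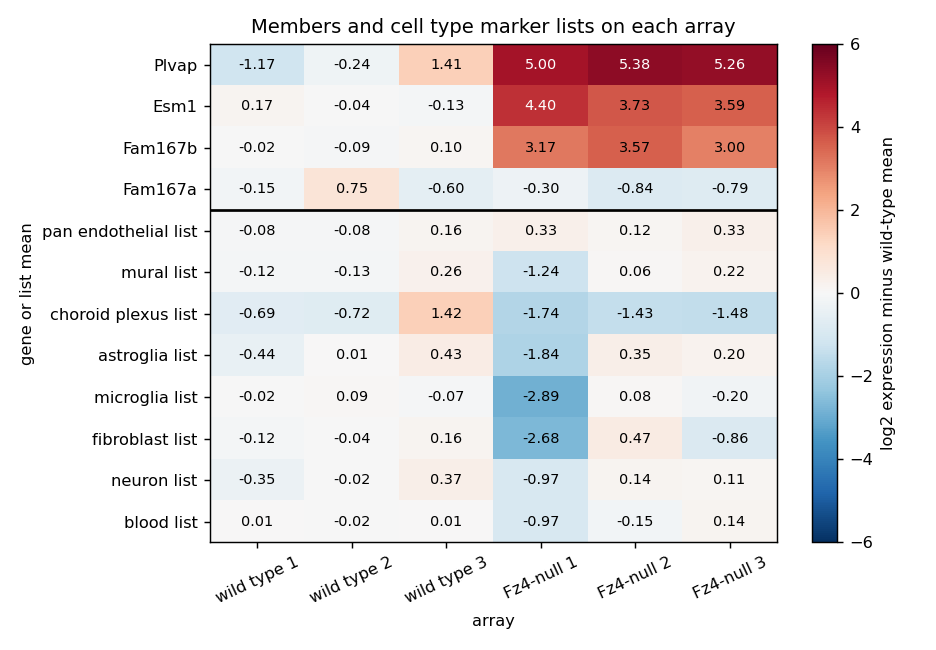
Log2 level on each array (columns) minus the wild-type mean, for the 4 genes (top rows) and for the mean of each cell type marker list (bottom rows), in red where higher and blue where lower. Plvap, Esm1 and Fam167b are above 3.00 on every null array, the choroid plexus list is high on wild-type replicate 3 alone, and null replicate 1 is low in most other cell lists.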

How the data were processed

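Total RNA of bead-purified cerebellar endothelial cells, 3 Fz4-null and 3 wild-type preparations, was purified with Trizol, then RNeasy, and labelled with biotin, as the labels' protocols state. The authors deposited log2 values made with RMA (submitters' processing notes), whose version is not given in the sources. Of 45101 probe sets, 64 controls were left out and 45037 tested. The platform annotation gave 34945 of them 1 gene symbol, 932 several and 9160 none, and the brightest probe set by mean over the arrays stood for each of 18193 genes. The members and gene lists were chosen with earlier results of these data known.

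The comparison used lmFit and eBayes of limma 3.58.1 under R 4.3.3 (6 arrays, no covariate, two-sided, Benjamini-Hochberg over all tested probe sets), after a check on simulated data. eBayes draws the variance of each probe set toward a value estimated over all probe sets, and the printed SEs use that variance. Named were the members, Fzd4, the 3 nearest profiles and 3 neighbours on each side, and up to 3 genes per list by lowest p. Exoc3l2 and Rbp7 in the order of differences, Cd36, Emcn, Vwf, Aqp1, Car4, Prm1, Adm and Kcne2 were named after their values were seen. Replicate numbers paired the arrays by the rule set (same-number correlations of deviations 0.244, 0.303 and 0.574, all above 0.1), although unlike numbers reached 0.262, so the block was fitted as an alternative. Arrays were also rescaled by quantiles, by medians and by cyclic loess, and the remaining alternatives were a filter on dim probe sets, a variance trend with robust estimation, averaging all probe sets of a gene, no _x_at or _s_at probe sets and each array left out. Arrays shared at most 0.351% of values. Figures were drawn with matplotlib 3.10.9.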

Additional observations from a re-analysis of the deposited data

How the results depend on the processing

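Over 7 alternatives of scaling, variance model, block and probe set choice, the difference stayed between 5.14 and 5.26 for Plvap, 3.84 and 3.91 for Esm1 and 3.19 and 3.25 for Fam167b, and over 6 such alternatives between -0.64 and -0.55 for Fam167a, which the filter on dim probe sets removes. Only the rescalings by quantiles, medians and cyclic loess could move these differences. The block, the variance model, the filter and the averaging cannot change the difference of a gene with 1 probe set. Leaving out 1 array gave 4.63 to 5.92 for Plvap, 3.66 to 4.07 for Esm1, 3.09 to 3.37 for Fam167b and -0.94 to -0.27 for Fam167a. With the replicate number as a block, 0 probe sets passed the limma threshold against 5 without it, and list and neighbouring genes had none to lose. Leaving out 1 array left 0 to 2 probe sets, 2 without wild-type replicate 3 and 1 without null replicate 1. The 6 lists beside the members and the neighbouring genes kept 0 genes past the threshold under every alternative run. The 8 fenestrated or peripheral genes with separated groups became 5 when only probe sets above the median level were kept, a filter that tests fewer genes, and 8 to 10 with 1 array left out. Choroid plexus markers lay 1.42 above the wild-type mean on wild-type replicate 3, and 0.82 to 1.47 above it under the alternatives. With 3 arrays a group and levels near background on 1 wild-type array for Plvap and in Fam167a, folds of these genes may be understated.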
